A study of Homo sapiens with 24 samples.

Results

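The 4 kinases that phosphorylate the alpha subunit of translation initiation factor eIF2 (EIF2AK1, EIF2AK2, EIF2AK3 and EIF2AK4), the alpha subunit itself (EIF2S1) and the 2 regulatory subunits that direct protein phosphatase 1 to it (PPP1R15A and PPP1R15B) were followed in lymphoma cells treated with artesunate, an antimalarial compound of the artemisinin family. They were found by gene symbol in the probe annotation of the array, and make up 7 of the 20045 gene symbols it holds. They are covered by 9 probes, of which 8 passed the filter on dim probes and were tested. Gene expression was profiled on Illumina HumanHT-12 v4 BeadChips in 3 human B-cell lymphoma cell lines, of which BL-41 is labelled as Burkitt lymphoma, and Oci-Ly-2 and SU-DHL-4 as diffuse large B-cell lymphoma of the germinal centre type. Where 3 values follow one another they are given for BL-41 first, SU-DHL-4 second and Oci-Ly-2 last. Each line had untreated controls at 0 h and 12 h, and cells given 5 µM artesunate for 4 h or 12 h. Each of these 12 groups was run on 2 arrays, 24 in all. The submitters describe the 2 arrays as technical replicates, so the p-values below reflect how far arrays of a group differ and say nothing of separate cultures. The labels give no control at 4 h, so in the 4 h comparison artesunate and time in culture cannot be told apart.

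When unfolded protein accumulates in the endoplasmic reticulum, when amino acids or heme run short, or when double-stranded RNA appears, one of the kinases phosphorylates eIF2alpha. The phosphorylated factor blocks its own exchange factor, eIF2B, so that most translation slows, while a few mRNAs with short upstream reading frames, ATF4 above all, are translated better. PPP1R15A, also called GADD34, is itself induced by this pathway and recruits the phosphatase that reverses the modification, whereas PPP1R15B, also called CReP, does so constitutively. The arrays measured mRNA, not the phosphorylation or activity of these proteins.

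Between 16156 and 18171 of the 47319 probes were detected per array, at a detection p under 0.05. The median non-normalized signal per array was between 82.6 and 112, and the precision of every value is limited by 2 arrays per group. MS4A1, CD79A, CD79B, BCL6 and MME, which mark B-cells and germinal centre B-cells, were detected on 8 of 8 arrays of each line, and PAX5 on 0 of 8. The T-cell genes CD3D and CD3E and the monocyte gene CSF1R were detected on 0 of 8 arrays of each line, CD2 on 1 or 2, CD14 on 2 or 3 and LYZ on 7 or 8. Because RNA was taken from whole cultures, fewer cells of a kind and less RNA per cell cannot be told apart. Levels below are log2 signals after background correction and quantile normalization. A probe was called when limma gave a log2 fold change of more than 0.5 in either direction together with an adjusted p under 0.01 (Benjamini-Hochberg) across all 25017 tested probes.

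**Figure D1:**
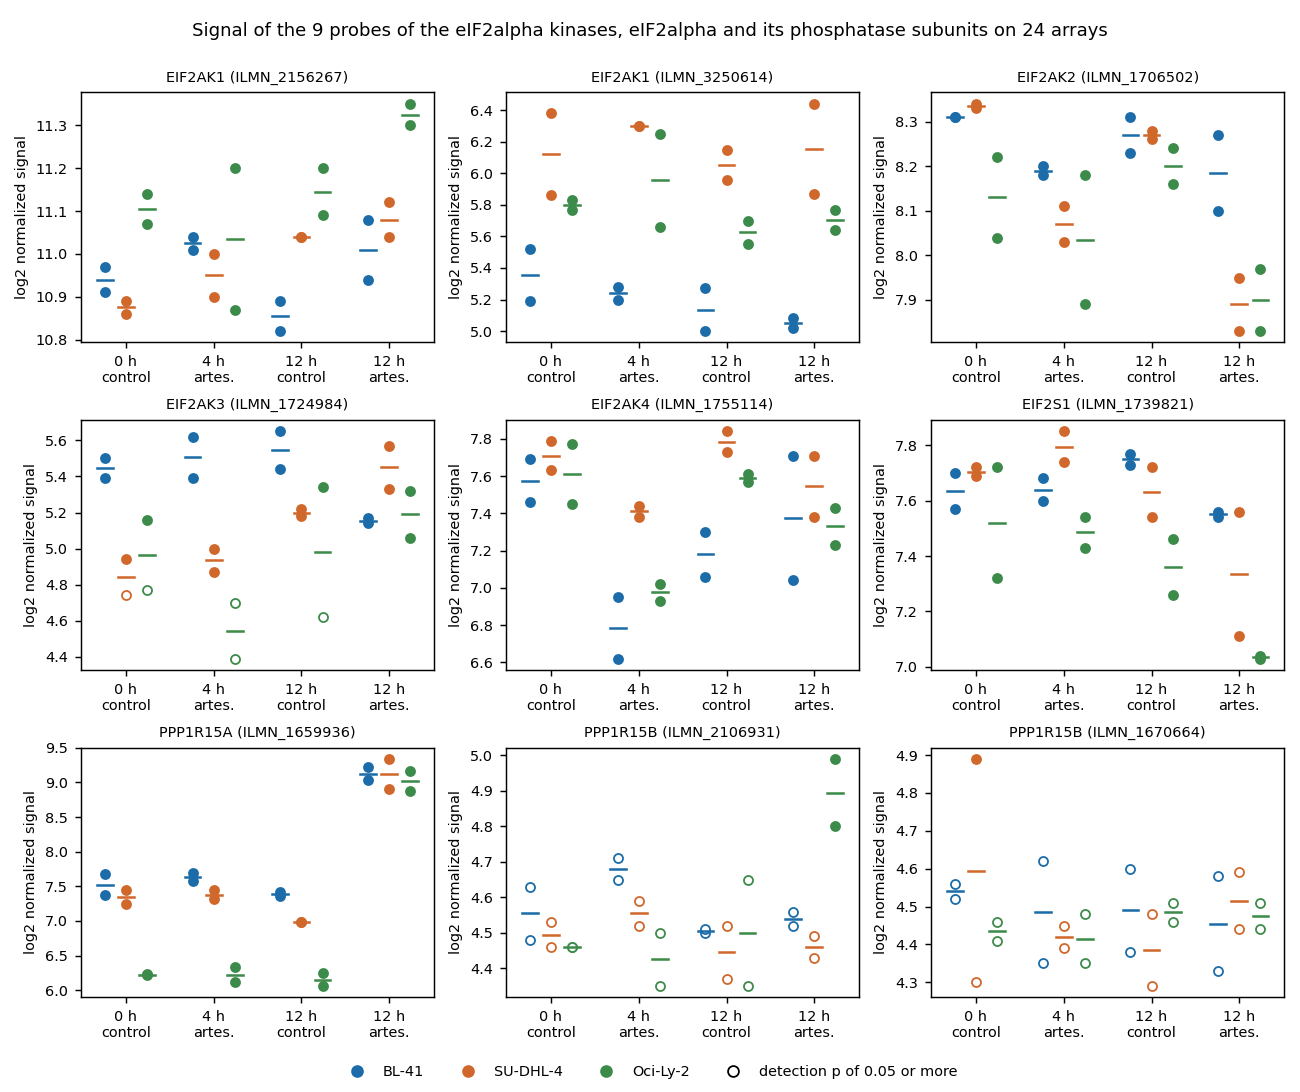
Log2 normalized signal (y axis, scaled separately for each probe) of the 9 probes in the 4 conditions (x axis) and 3 cell lines (colours). Each point is 1 array, open where the detection p was 0.05 or more, and each bar is the mean of 2 arrays. For PPP1R15A, the 6 arrays of 12 h artesunate lay above all 18 others, a separation whose share over all probes was not counted.

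PPP1R15A, the inducible phosphatase subunit, was the only one of the 7 genes called between artesunate and control at 12 h, and it rose in all 3 lines. In BL-41 its log2 signal was 7.36 and 7.42 on the 12 h control arrays and 9.03 and 9.22 on the 12 h artesunate arrays. In SU-DHL-4 the controls gave 6.99 and 6.98 and the treated arrays 8.91 and 9.34. In Oci-Ly-2 the controls gave 6.06 and 6.25 and the treated arrays 8.87 and 9.17. The treated and control arrays did not overlap in any line. Both treated arrays lay above both controls in all 3 lines for 6.17% of the tested probes. The non-normalized signals of the 6 treated arrays were separated in the same way, from 395 to 742, whereas no other array exceeded 336.

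The increase of PPP1R15A was 3.33-fold in BL-41 (log2 fold change 1.74 ± 0.16 SE, limma adjusted p = 1.20e-06). It was 4.42-fold in SU-DHL-4 (2.14 ± 0.16, limma adjusted p = 2.27e-07) and 7.29-fold in Oci-Ly-2 (2.87 ± 0.16, limma adjusted p = 2.44e-09). With the deposited processed values, which hold no background subtraction, the increase was still called and was 2.60-fold, 3.13-fold and 4.02-fold. One of the 8 tested member probes was thus called in each line, where 1.51%, 0.931% and 3.03% of all tested probes were called. Ranked by rise among the tested probes, PPP1R15A stood at places 49, 10 and 4. It belonged to the 62 probes (0.248%) called higher in all 3 lines. With the cell line taken as the replicate, the mean change was 2.25 ± 0.18 (limma adjusted p = 0.000634, 2.01% of probes called), with an increase in 3 of 3 lines, and without the filter on dim probes that adjusted p was 0.0243 and the call was lost.

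The promoter of PPP1R15A is shown because the gene was the member that rose, with 2 motifs of stress-activated transcription factors in capitals. The sequence is that of RefSeq for GRCh38.p14, the 250 bases before the annotated start on the plus strand at chr19:48872171-48872420. TTGCAAAA, at bases -147 to -140 from the start, matches a C/EBP site (TTGCNNAA), and TGACGTCA, at bases -58 to -51, is the cAMP response element bound by ATF and CREB factors.
PPP1R15A: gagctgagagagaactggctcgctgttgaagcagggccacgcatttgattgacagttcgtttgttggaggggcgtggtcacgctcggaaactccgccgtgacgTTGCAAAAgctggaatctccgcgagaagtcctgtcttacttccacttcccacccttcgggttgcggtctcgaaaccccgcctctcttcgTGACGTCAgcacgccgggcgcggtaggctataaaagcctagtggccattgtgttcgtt
Both strands of the 300 bases from 250 before to 50 after each start were searched for 5 motifs. TGACGTCA was present in 1.98% and TTGCNNAA in 10.6% of the 27305 promoters in the table. A further TTGCNNAA lay on the opposite strand of PPP1R15A, at bases 33 to 40 after its start. These matches are letters in a sequence, and binding was not measured.

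At 4 h PPP1R15A was not called in any line. Its signals at 4 h with artesunate were 7.58 and 7.69 in BL-41, against 7.68 and 7.37 at 0 h. They were 7.44 and 7.32 in SU-DHL-4, against 7.45 and 7.25, and 6.33 and 6.12 in Oci-Ly-2, against 6.23 and 6.22. The arrays overlapped in every line. The log2 differences were 0.11 (95% interval -0.23 to 0.45), 0.03 (-0.31 to 0.37) and -0.00097 (-0.34 to 0.34). The step between 4 h and 12 h of artesunate, a comparison chosen after the values were seen, was 1.49, 1.75 and 2.80 (limma adjusted p = 1.14e-05, 4.34e-06 and 3.84e-09). With the processed values the step in Oci-Ly-2 was 1.97. It was called in all 3 lines, against 0.991%, 0.668% and 2.67% of the tested probes. Without artesunate, the level at 12 h differed from that at 0 h by -0.14, -0.36 and -0.07. None of these was called by limma, and that of SU-DHL-4 had an unadjusted p of 0.0371 (adjusted p = 0.494).

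The lines started from different levels of PPP1R15A. Over the 4 control arrays of each line, the mean log2 signal was 7.46 ± 0.15, 7.17 ± 0.23 and 6.19 ± 0.09 (SD, n = 4). The highest control of Oci-Ly-2, 6.25, lay below the lowest of SU-DHL-4, 6.98, and the share of all probes separated in this way was not counted. BL-41 exceeded Oci-Ly-2 by 1.27 ± 0.11 (limma adjusted p = 2.26e-08) and SU-DHL-4 exceeded Oci-Ly-2 by 0.98 ± 0.11 (8.46e-07). With the deposited processed values these were 0.75 and 0.56, and both were still called. BL-41 and SU-DHL-4, whose controls overlapped, differed by 0.29 ± 0.11 (adjusted p = 0.061), which was not called. Differences between lines were common in the controls, with 19.4%, 19.3% and 19.4% of probes called for BL-41 against SU-DHL-4, BL-41 against Oci-Ly-2, and the remaining pair.

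After 12 h of artesunate the 3 lines stood at similar PPP1R15A levels, with means of 9.12, 9.13 and 9.02. The highest and lowest line means were 1.30 apart at 0 h, 1.41 at 4 h with artesunate and 1.23 in the 12 h controls, and 0.11 apart at 12 h with artesunate. In this comparison, again chosen after the values were seen, BL-41 differed from SU-DHL-4 by -0.0030 (95% interval -0.34 to 0.34), BL-41 from Oci-Ly-2 by 0.10 (-0.24 to 0.44) and SU-DHL-4 from Oci-Ly-2 by 0.11 (-0.23 to 0.44). None was called, where 16.5%, 17.1% and 16.1% of all probes were. The 12 h response of BL-41 differed from that of Oci-Ly-2 by -1.13 ± 0.23 on the log2 scale (limma adjusted p = 0.0478), short of the threshold of 0.01. It differed by -0.72 ± 0.23 between SU-DHL-4 and Oci-Ly-2 (adjusted p = 0.373) and by -0.41 ± 0.23 between BL-41 and SU-DHL-4 (0.82).

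**Figure D2:**
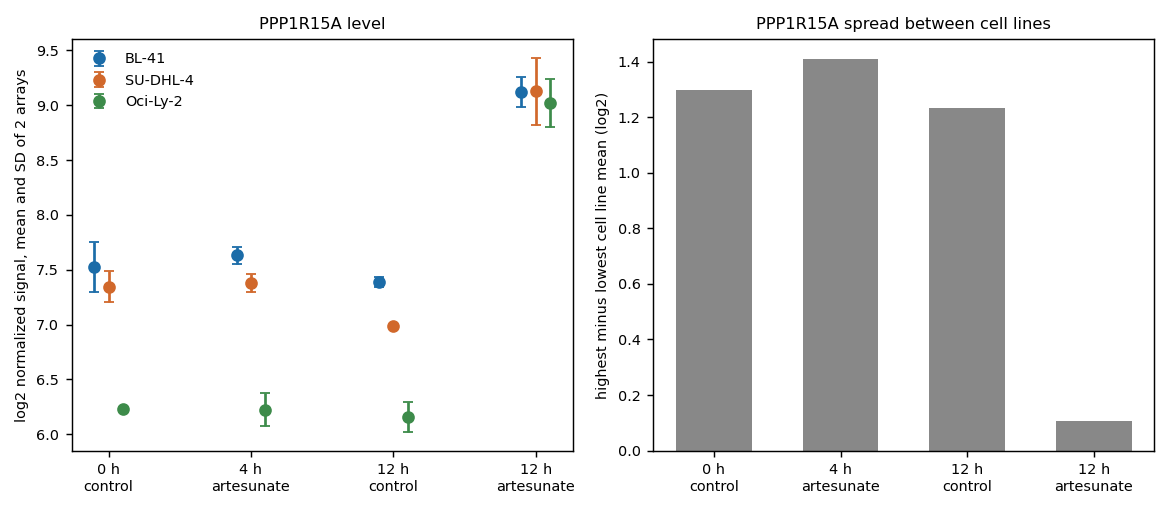
Left, mean PPP1R15A log2 normalized signal with the SD of 2 arrays (y axis) by condition (x axis) and cell line (colours). Right, the highest minus the lowest of the 3 line means (y axis, log2) in each condition, which was 1.23 in the 12 h controls and 0.11 at 12 h with artesunate.

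PPP1R15B, the constitutive phosphatase subunit, was close to the background of the array. The brighter of its probes was detected on 2 of 24 arrays, both from Oci-Ly-2 at 12 h with artesunate, at detection p-values of 0.0117 and 0.044, and passed the filter only through them. The other was detected on 1 array, a 0 h control of SU-DHL-4 at a detection p-value of 0.0416, and was not tested. By chance alone 1.2 of 24 arrays would fall under a detection p of 0.05. On the brighter probe Oci-Ly-2 gave 4.35 and 4.65 in the 12 h controls and 4.99 and 4.80 with artesunate. Neither control array detected the probe, which could be tested only because of the treated arrays, so no fold or test is given for it. In BL-41 and SU-DHL-4 the probe was not well above background in any group.

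The promoter of PPP1R15B is shown for comparison with that of PPP1R15A, and it shared neither of the matches marked there. It is the RefSeq sequence for GRCh38.p14 of the 250 bases before the start, on the minus strand at chr1:204411818-204412067. The capitals mark TGATGCAA, at bases -227 to -220, a match to the composite element of C/EBP and ATF factors (TGATGNAA), which was in 3.67% of promoters.
PPP1R15B: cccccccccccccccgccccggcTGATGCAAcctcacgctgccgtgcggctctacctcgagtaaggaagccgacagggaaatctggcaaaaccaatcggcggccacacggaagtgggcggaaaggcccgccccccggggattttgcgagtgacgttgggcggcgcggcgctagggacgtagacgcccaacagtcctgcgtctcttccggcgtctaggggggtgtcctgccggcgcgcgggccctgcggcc
The ER stress response element (CCAAT and CCACG, 9 bases apart), present in 0.0806% of promoters, was in none of the 6 member promoters in the table, those of EIF2AK2, EIF2AK3, EIF2AK4, EIF2S1, PPP1R15A and PPP1R15B. EIF2AK3 held TTGCNNAA at bases -25 to -18, and EIF2AK4 and EIF2S1 held none of the 5 motifs. No match overlapped a match of another motif.

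EIF2S1, which encodes the eIF2alpha subunit that the kinases and phosphatases act on, was not called in any comparison. At 12 h its signals in Oci-Ly-2 were 7.46 and 7.26 in the controls and 7.04 and 7.03 with artesunate. They were 7.73 and 7.77 against 7.56 and 7.54 in BL-41, and 7.72 and 7.54 against 7.56 and 7.11 in SU-DHL-4. The treated arrays overlapped the controls in SU-DHL-4 and lay below them in the other lines, a separation whose share over all probes was not counted. The differences were -0.21 ± 0.16, -0.29 ± 0.16 and -0.33 ± 0.16 (limma adjusted p = 0.63, 0.38 and 0.251). With the line as the replicate the mean was -0.28 ± 0.09, lower in 3 of 3 lines (adjusted p = 0.119). At 4 h the differences ranged from -0.04 to 0.09.

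EIF2AK3 encodes PERK, the kinase of the endoplasmic reticulum, and was dim, with detection on 19 of 24 arrays, or 8, 7 and 4 of the 8 arrays of a line. At 12 h BL-41 had 5.44 and 5.65 in the controls and 5.17 and 5.14 with artesunate, so the treated arrays were lower. SU-DHL-4 had 5.22 and 5.18 in the controls and 5.57 and 5.33 with artesunate, so they were higher. The arrays of Oci-Ly-2 overlapped, at 4.62 and 5.34 in the controls and 5.06 and 5.32 with artesunate. The share of all probes whose treated and control arrays were separated within a line was not counted. The differences of -0.39, 0.25 and 0.21 (SE 0.20 in each line) were not called by limma (adjusted p = 0.392, 0.596 and 0.655). The 4 control arrays of BL-41 (5.39 to 5.65) lay above those of Oci-Ly-2 (4.62 to 5.34), a separation whose share over all probes was not counted. That difference of 0.52 ± 0.14 was called (limma adjusted p = 0.00647), where 19.3% of all probes were called. However, it was called under only 7 of 19 alternatives, over which it ranged from 0.17 to 0.70. Among these, leaving out the 12 h control replicate 1 of Oci-Ly-2 gave 0.34 (adjusted p = 0.0617).

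EIF2AK4 encodes GCN2, the kinase that senses uncharged tRNA. At 4 h both artesunate arrays lay below both 0 h arrays in all 3 lines, as did 3.54% of the tested probes. In BL-41 the signal was 7.46 and 7.69 at 0 h and 6.95 and 6.62 at 4 h. In SU-DHL-4 it was 7.79 and 7.63 against 7.44 and 7.38, and in Oci-Ly-2 7.77 and 7.45 against 6.93 and 7.02. The differences of -0.79 ± 0.19, -0.30 ± 0.19 and -0.64 ± 0.19 were not called by limma (adjusted p = 0.0794, 0.628 and 0.264). Taking the line as the replicate, a fit added after the values were seen, gave -0.58 ± 0.11 (adjusted p = 0.0416), lower in 3 of 3 lines and short of the threshold of 0.01, at which limma called 0% of probes.

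At 12 h EIF2AK4 was not called either. Artesunate and control differed by 0.20, -0.24 and -0.26 (SE 0.19), with 1 treated array of BL-41 at 7.04 and the other at 7.71. In BL-41 the untreated 12 h arrays, at 7.06 and 7.30, were themselves below those of 0 h by -0.39 ± 0.19 (limma adjusted p = 0.878), whereas this difference was 0.07 in SU-DHL-4, and -0.02 in the last line.

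EIF2AK2 encodes PKR, the kinase activated by double-stranded RNA, and was detected on all 24 arrays within a narrow range of 7.83 to 8.34. At 12 h SU-DHL-4 gave 8.28 and 8.26 in the controls and 7.95 and 7.83 with artesunate, and Oci-Ly-2 gave 8.16 and 8.24 against 7.83 and 7.97. The treated arrays lay below the controls in these 2 lines and overlapped them in BL-41 (8.31 and 8.23 against 8.10 and 8.27). How many of all probes were separated in this way was not counted. The differences were -0.38 ± 0.13 in SU-DHL-4, -0.31 ± 0.13 in Oci-Ly-2 and -0.09 ± 0.13 in BL-41, none of them called by limma (adjusted p = 0.131, 0.191 and 0.858). The stretch around its start is shown because EIF2AK2 is an interferon-induced gene. It is the RefSeq sequence for GRCh38.p14 on the minus strand at chr2:37156977-37157020, and the capitals mark GAAAACGAAA, from base -6 to base 4, a match to the interferon-stimulated response element (GAAA, 2 bases of any kind and GAAA) that was in 3.65% of promoters.
EIF2AK2: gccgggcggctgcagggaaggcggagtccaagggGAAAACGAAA

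The control levels of EIF2AK2 differed by at most 0.14 between lines and were not called. Of 14 measured interferon-stimulated genes, 7 were called lower and 1 higher in BL-41 than in Oci-Ly-2 controls (19.3% of all probes called), and 9 were called lower and 0 higher in SU-DHL-4 than in Oci-Ly-2 (19.4%). In BL-41 against SU-DHL-4 controls (19.4%), 4 were called higher (IFI6, IFIH1, MX1 and OAS2) and 1 lower (ISG15). At 12 h of artesunate 0, 0 and 1 of the 14 were called, where 1.51%, 0.931% and 3.03% of all probes were. The called gene was IFIT2, which binds foreign RNA (log2 fold changes -0.03, 0.14 and 0.99). The counts at an unadjusted p under 0.05 were 1, 3 and 4, against 14.4%, 15.8% and 19.2% of all probes. IRF7, a transcription factor of the interferon response, differed by 0.41, 0.65 and 1.24 and OAS1, a sensor of double-stranded RNA, by -0.20, -0.25 and -0.61, and neither was called.

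EIF2AK1 encodes HRI, the heme-regulated kinase, and its probes gave different pictures. The brighter one, detected on all 24 arrays between 10.82 and 11.35, was called in no comparison. At 12 h it differed between artesunate and control by 0.16, 0.03 and 0.18 (SE 0.13). The dimmer probe, annotated to another transcript of the gene and detected on all 24 arrays between 5.00 and 6.44, differed by -0.08, 0.10 and 0.08 (SE 0.21). Neither was called at 4 h, where all 6 differences lay between -0.11 and 0.18.

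The dimmer EIF2AK1 probe differed between lines. Its 4 control arrays lay between 5.00 and 5.52 in BL-41, between 5.86 and 6.38 in SU-DHL-4 and, for Oci-Ly-2, between 5.55 and 5.83. The groups did not overlap, and the share of all probes for which this held was not counted. BL-41 was lower than SU-DHL-4 by -0.84 ± 0.15 (limma adjusted p = 0.000112), where 19.4% of all probes were called. On the brighter probe this difference was -0.06 ± 0.09 (adjusted p = 0.7). With the processed values the dimmer probe differed by -0.34 and was not called. After 12 h of artesunate it was lower in BL-41 than in SU-DHL-4 by -1.10 ± 0.21 (adjusted p = 0.000423), where 16.5% of probes were called. With the processed values this was -0.43 and not called. Without the 12 h artesunate replicate 1 of SU-DHL-4 this was -0.82 and not called (adjusted p = 0.0186).

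At 4 h none of the 8 tested member probes was called by limma in any line, where 0%, 0.056% and 0% of all tested probes were called. At an unadjusted p under 0.05 there were 1, 0 and 2, namely EIF2AK4 in BL-41 and both EIF2AK3 and EIF2AK4 in Oci-Ly-2, where 8.24%, 10.8% and 7.52% of all tested probes were under it. Between the 12 h and 0 h controls limma likewise called 0 member probes, against 0.004%, 0% and 0.00799% of all probes. With no adjustment of p there was 1 under 0.05, PPP1R15A in SU-DHL-4, against 5.68%, 9.43% and 4.94% of all probes. Of the differences in 12 h response between lines, 0 were called, against 0.064%, 0.12% and 0.02% of all probes. At an unadjusted p under 0.05 these were EIF2AK3 for BL-41 against SU-DHL-4, EIF2AK3 and PPP1R15A for BL-41 against Oci-Ly-2, and PPP1R15A for SU-DHL-4 against Oci-Ly-2, against 6.72%, 6.28% and 7.59% of all probes. Between artesunate and control at 12 h, 1, 2 and 4 of the 8 member probes had an unadjusted p under 0.05, against 14.4%, 15.8% and 19.2% of all probes. Besides PPP1R15A these were EIF2AK2 for SU-DHL-4, and EIF2AK2 and EIF2S1 for Oci-Ly-2. The count of 4 in Oci-Ly-2 also holds the PPP1R15B probe. That probe entered the test only through its treated arrays, so its p is not evidence of a change.

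**Figure D3:**
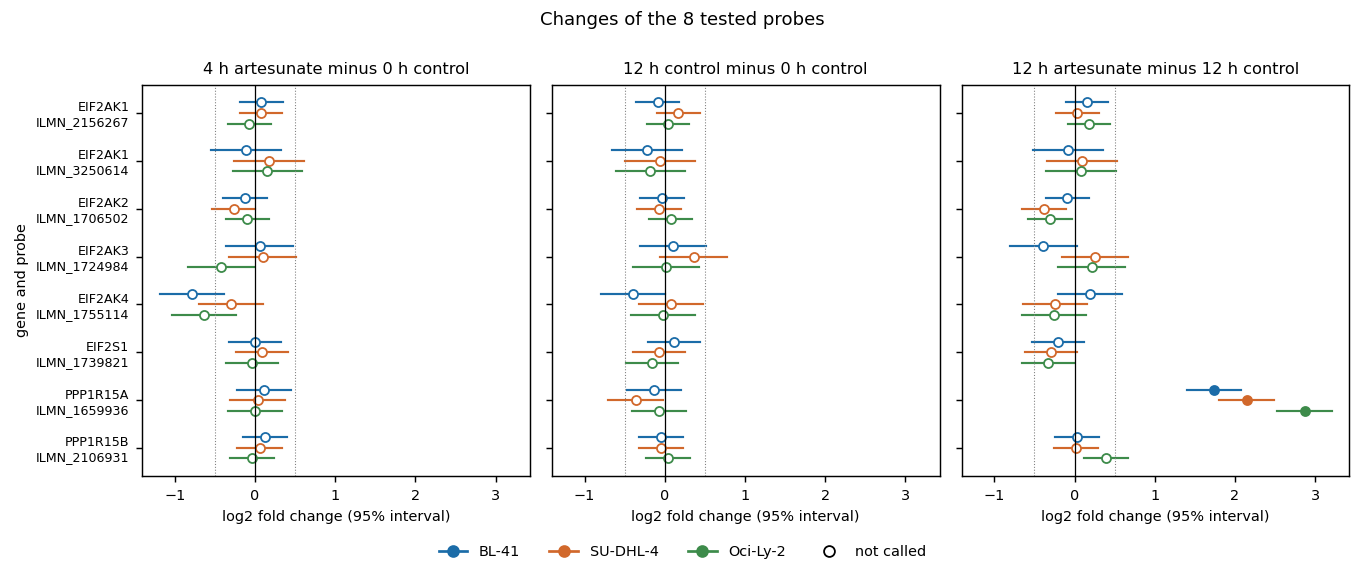
Log2 fold change with its 95% interval (x axis) of the 8 tested probes (y axis) for 4 h artesunate minus 0 h control, 12 h control minus 0 h control and 12 h artesunate minus 12 h control, by cell line (colours). Filled points were called and open points were not, and dotted lines mark a log2 fold change of 0.5 in either direction. PPP1R15A at 12 h, with 1.74, 2.14 and 2.87, held the only filled points. The PPP1R15B probe passed the filter only through the 2 arrays of Oci-Ly-2 at 12 h with artesunate, so its interval there is not a test.

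The genes around the 7 members were taken from lists. In the list of outputs of eIF2alpha phosphorylation, genes whose translation or transcription rises when the factor is phosphorylated, 14 of 16 were measured. Of these, 11, 10 and 9 were called higher at 12 h and 0 were called lower. Of the 25017 tested probes 235, 147 and 399 were called higher, and 1.51%, 0.931% and 3.03% were called in either direction. The list counts a gene when any of its probes was called, whereas these values count probes. The list was drawn up with results of these data known, so its count is a description. The median log2 fold change of the list was 1.74, 1.47 and 1.39, where that of all tested probes was -0.0017, -0.00021 and 0.0023. DDIT3, the transcription factor CHOP that induces PPP1R15A, rose by 3.38, 2.92 and 2.63. TRIB3, a pseudokinase that dampens ATF4 and CHOP, rose by 2.20, 2.33 and 3.02, and SESN2, a leucine sensor upstream of mTORC1, by 2.60, 2.16 and 2.44. BBC3 and NUPR1 were called in no line, with values from -0.30 to 0.20. At 4 h 0 of the 14 were called by limma in any line. At an unadjusted p under 0.05 there were 4, 4 and 0, against 8.24%, 10.8% and 7.52% of all tested probes.

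The catalytic phosphatase subunits, which carry out the dephosphorylation, gave 0 calls by limma among 3 genes in every line. Of these 0 had an unadjusted p under 0.05. Over all tested probes, 1.51%, 0.931% and 3.03% were called at 12 h, and 14.4%, 15.8% and 19.2% had an unadjusted p under 0.05. PPP1CA differed by -0.14, 0.11 and 0.0012, PPP1CB by -0.32, 0.17 and 0.13, and PPP1CC by 0.15, 0.16 and 0.13. The other subunits of eIF2, its exchange factor eIF2B and EIF5, which stimulates GTP hydrolysis by eIF2, gave 0 calls among 8 genes in each line, and 1 in each at an unadjusted p under 0.05. EIF5 differed by 0.63 (adjusted p = 0.0105), 0.28 and 0.31, the beta subunit EIF2S2 by 0.07, 0.58 and 0.24, and the gamma subunit EIF2S3 by -0.0021, 0.17 and 0.29.

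Of 9 measured regulators of the kinases, 0, 1 and 1 were called at 12 h, against 1.51%, 0.931% and 3.03% of all tested probes. The called gene was HSPA5, the chaperone BiP that holds PERK inactive, which fell by 1.49 in SU-DHL-4 (limma adjusted p = 0.000905) and by 1.73 in Oci-Ly-2 (8.25e-05). In BL-41 it differed by -0.89 (adjusted p = 0.0335), which was not called. DELE1, the mitochondrial protein that activates HRI, differed by 0.49, 0.39 and 0.43 and PRKRA, an activator of PKR, by -0.23, -0.18 and -0.28, and neither was called.

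**Figure D4:**
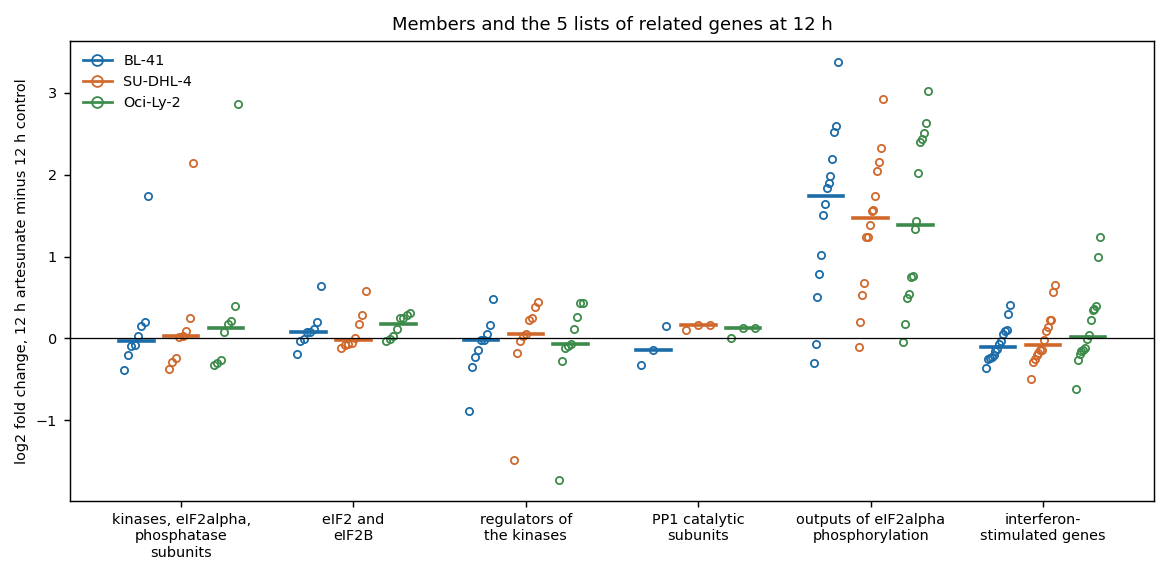
Log2 fold change of 12 h artesunate minus 12 h control (y axis) for the 8 tested member probes and for the brightest probe of each gene in 5 lists of related genes (x axis), by cell line (colours). Each open point is 1 probe and each bar the median. The outputs of eIF2alpha phosphorylation had medians of 1.74, 1.47 and 1.39, and PPP1R15A is the highest point of the first column in each line. That column and its median include the PPP1R15B probe, which passed the filter only through the treated Oci-Ly-2 arrays. Its point for Oci-Ly-2 is not evidence of a change.

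The genes whose pattern over the 12 group means was most like that of PPP1R15A were ZFAS1 (Pearson r = 0.98), HINT2 (0.97) and TRIB3 (0.96). For EIF2S1 they were SS18L2 (0.96), TCP1 (0.96) and NOP16 (0.95), and for EIF2AK2 they were EIF4E (0.95), VKORC1 (0.94) and PGRMC2 (0.93). The closest gene to EIF2AK1 was STX5 (0.92), to EIF2AK3 it was KMT2C (0.93) and to EIF2AK4 it was PRXL2A (0.92). For PPP1R15B none is named, since its probe was near background and passed the filter only through the treated Oci-Ly-2 arrays. These correlations describe 12 means from the same arrays, were the highest among tested probes whose group means spanned at least 0.5, and carry no test. The members were not held to that span, and the EIF2AK1 and EIF2AK2 probes used spanned only 0.47 and 0.45.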

How the data were processed

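Gene expression was measured in 3 cell lines on 24 arrays. The labels call the controls untreated, whereas the study's text speaks of vehicle. The deposited values are signal intensities before normalization with their detection p-values, and a table of intensities that the authors processed. For the authors' normalization of that table, the method was not given in the sources used here, but the processed values differed from plain quantile normalization by at most 0.0207 (log2). Here limma's neqc (limma 3.58.1, R 4.3.3) corrected background with negative controls inferred from those p-values and an offset of 16, then applied quantile normalization on the log2 scale. The 25017 probes detected (p under 0.05) on 2 or more arrays were tested in one limma model with 12 group means, and p-values were adjusted over all of them. The thresholds are those of the study's methods. A second limma model on group means took the cell line as the replicate.

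All member probes were described. From each list, up to 3 genes with the largest absolute mean change at 12 h were named, and the 3 genes most alike were sought among probes whose group means span at least 0.5. BBC3 and NUPR1 are outside that rule, picked once their values had been seen. The members and lists were chosen with earlier results of these data known. A list takes the brightest tested probe of a gene for its value, and a call on any probe. RIGI was used for DDX58. Of the 7 members, 6 had a promoter in the RefSeq table used.

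Alternatives were the processed values, median scaling, no or a stricter filter on dim probes, array weights, a replicate block, an adjusted p under 0.05, the brightest probe only, the compared lines only, other controls, and leaving out each array. The model was tested on simulated data.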

Additional observations from a re-analysis of the deposited data

Results flagged for a closer look

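The 12 h log2 fold changes of EIF2AK3 (PERK) had opposite signs in BL-41 and SU-DHL-4, at -0.39 and 0.25, and neither was called. The difference between the responses was -0.65 ± 0.28 on the log2 scale and did not pass the test (limma adjusted p = 0.708). The probe was dim, with signals between 4.39 and 5.65.

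The 12 h rise of PPP1R15A in BL-41 differed from that in Oci-Ly-2 by -1.13 ± 0.23 on the log2 scale (limma adjusted p = 0.0478), which passed a threshold of 0.05 and not that of 0.01. With the deposited processed values the difference was -0.63 (adjusted p = 0.107), and when each array was left out in turn it lay between -1.28 and -0.98 with an adjusted p of up to 0.304. The control level of PPP1R15A was higher in BL-41 than in Oci-Ly-2 by 1.27, and its part in this difference was not tested.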

How the results depend on the processing

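Of 12 called member values, 8 stayed called under all alternatives and 0 changed sign. Most of the 12 came from the single PPP1R15A probe in overlapping comparisons. The called values of EIF2AK1 and EIF2AK3, and that of PPP1R15A with the cell line as the replicate, were each lost under at least 1 alternative. Of 172 uncalled values, 69 changed sign under at least 1 alternative and 5 were called under at least 1. Tested within each line, the rise of PPP1R15A at 12 h was called throughout. It ran from 1.38 to 1.83 in BL-41, 1.64 to 2.36 in SU-DHL-4 and, for Oci-Ly-2, 2.01 to 3.02. The number of member probes called between BL-41 and SU-DHL-4 controls was 1, and 0 with the processed values or the brightest probe only. The same held for their levels after 12 h of artesunate, where leaving out 1 array gave 0 to 1. Between BL-41 and Oci-Ly-2 controls it was 2, and 1 with the processed values, without the filter on dim probes, with only the lines compared, and with 0 h or 12 h controls alone. With median scaling it stayed at 2 but not for the same genes, since EIF2AK3 (0.39, adjusted p = 0.0608) was lost and the dimmer EIF2AK1 probe (-0.60, adjusted p = 0.00463) was called. Leaving out 1 array gave 1 to 2, and the lost call was EIF2AK3 without either 0 h control of BL-41, its 12 h control replicate 3, the 0 h control replicate 3 of Oci-Ly-2 or its 12 h control replicate 1. With the cell line as the replicate the count at 12 h fell from 1 to 0 without the filter, where 3 probes in all were called against 504. At an adjusted p under 0.05 the 12 h response of BL-41 against Oci-Ly-2 gave 1 instead of 0, the 4 h response with the cell line as the replicate 1 instead of 0, and the 12 h artesunate level of BL-41 against Oci-Ly-2 2 instead of 0, as did array weights. Unless the alternative itself sets the count, the cause was not tested.

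Deviations of same-numbered arrays correlated between -0.18 and 0.21 in BL-41. The lowest and highest were 0.057 and 0.28 for SU-DHL-4, whereas Oci-Ly-2 had 0.075 and 0.16. Since these were not all over 0.1 in any line, the replicate numbers were not taken to pair the samples, although all were positive in the last 2 lines. With the replicate block, calls between BL-41 and Oci-Ly-2 controls fell from 2 to 1 and no other count of member calls changed. The probes called at 12 h went from 378, 233 and 759 to 398, 294 and 840, with the lines in the same order.

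Counts over all probes moved more. At 12 h they ranged from 125 to 834, 17 to 759 and 299 to 1571, and from 135 to 147, 61 to 174 and 189 to 370 without 1 array, where the lone array of a group is assumed to vary like the others. At 4 h they ranged from 0 to 88, 0 to 169 and 0 to 17, against 0, 14 and 0 as reported. The processed values gave 2470, 2496 and 2475 calls between controls in place of 4844, 4826 and 4864. Median scaling shifted the median of all probes by -0.12 at 12 h in Oci-Ly-2, by -0.20 at 4 h in SU-DHL-4, by 0.14 at 4 h in Oci-Ly-2, and by -0.25, -0.14 and 0.10 between the controls (BL-41 against SU-DHL-4, BL-41 against Oci-Ly-2, then the remaining pair). It turned 2411 higher and 2433 lower calls between BL-41 and SU-DHL-4 controls into 1914 and 3314.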
